A study of Mus musculus with 16 samples.

Results

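Sucrose is split at the brush border of the small intestine into glucose and fructose, and 9 genes that handle these sugars are described here in the mouse terminal ileum. They were chosen by name: the brush-border glucose carrier *Slc5a1* (SGLT1), the fructose carrier *Slc2a5* (GLUT5), the basolateral carrier *Slc2a2* (GLUT2), the fructolytic enzymes *Khk* and *Tkfc*, the glucose-output enzymes *Fbp1*, *G6pc* and *Pck1*, and *Mlxipl*, which encodes the sugar-sensing transcription factor ChREBP. All 9 were measured and tested among the 19042 tested of the 23299 genes with values. Ileal RNA came from C57BL/6 wild-type (*Tas1r3*+/+) and taste receptor knockout (*Tas1r3*-/-) mice, whose age the labels do not give, fed a normal diet (ND) with plain water or a Western diet (WD) for 10 weeks. The WD joined pellets with 60% fat to drinking water with 30% sucrose, so an effect of the sugar cannot be told apart from one of the fat. The *Tas1r3* deletion is carried by every cell of the knockout mice, and the study describes the wild-type mice as littermates.

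The labels give 2 males and 2 females in each of the 4 groups. The ND-fed *Tas1r3*-/- female columns equal weighted means of the ND-fed *Tas1r3*-/- male columns in all but 17 and 18 transcripts, so they were left out and this group holds 2 males only. The WD-fed *Tas1r3*-/- female columns correlated with each other at r = 0.9799, against at most 0.9427 for any other pair among the columns kept, and were averaged to 1 library. The comparisons therefore rest on 13 libraries: 4 ND-fed *Tas1r3*+/+, 2 ND-fed *Tas1r3*-/-, 4 WD-fed *Tas1r3*+/+ and 3 WD-fed *Tas1r3*-/-. *Tas1r3* itself lay between 1.56 and 6.65 scaled RPKM in the *Tas1r3*+/+ libraries and was at most 0.00532 in the *Tas1r3*-/- libraries; 3 of the *Tas1r3*+/+ values were written with 7 digits, 1 more than the software wrote for nearly all values. RPKM is the number of reads per kilobase of transcript, relative to library depth, summed here over the transcripts of a gene and scaled between libraries. The values imply 7003132 to 12384097 reads a library. The RPKM columns summed to 817011 to 819916 on ND and to 542371 to 685274 on WD, so diet and the authors' column total cannot be told apart. The ileal markers *Fabp6*, *Slc51b*, *Slc10a2* and *Osr2* summed to 853 to 9621 scaled RPKM, whereas the 4 markers of the proximal small intestine summed to at most 17.4, and the label terminal ileum matches these levels. Whole ileal tissue was sequenced, and fewer epithelial cells cannot be told apart from less RNA per cell.

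In enterocytes, SGLT1 takes up glucose with sodium, GLUT5 takes up fructose without it, and GLUT2 passes both sugars on to the blood. Ketohexokinase, from *Khk*, traps fructose in the cell by phosphorylating it. Triokinase, from *Tkfc*, later returns glyceraldehyde to glycolysis. Phosphoenolpyruvate carboxykinase (*Pck1*), fructose bisphosphatase (*Fbp1*) and glucose-6-phosphatase (*G6pc*) carry out the steps of glucose synthesis that glycolysis cannot reverse. ChREBP is switched on by sugar phosphates and, with its partner MLX, binds carbohydrate response elements built from E-boxes.

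The sequences before the starts of 4 of the genes are shown because each holds an E-box or a cyclic AMP response element. Single E-boxes were searched, and whole carbohydrate response elements were not. The E-box CACGTG (its own reverse complement) was searched in the 250 bases before each start listed by RefSeq on GRCm38.p6, and 6.02% of 32851 such windows held it. Of the 10 windows of the 9 genes, 3 held it. In *Slc5a1*, *Khk* and the upstream start of *Mlxipl* it began 143, 71 and 98 bases before the start. The cyclic AMP response element TTACGTCA, searched on both strands and not overlapping the E-box, was in 0.447% of all windows and, among these genes, before *Pck1* only, 93 bases from the start. All 4 stretches are on the + strand, capitals mark the motif, and transcribed bases were left out except for the 30 bases of *Khk*, which lie past the first start in GENCODE.
*Slc5a1* at chr5:33103969-33104218: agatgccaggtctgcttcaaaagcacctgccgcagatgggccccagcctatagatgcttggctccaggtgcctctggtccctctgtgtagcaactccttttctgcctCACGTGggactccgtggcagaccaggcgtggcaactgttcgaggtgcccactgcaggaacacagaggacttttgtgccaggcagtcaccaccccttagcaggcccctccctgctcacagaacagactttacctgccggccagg
*Khk* at chr5:30921476-30921505: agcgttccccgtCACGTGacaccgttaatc
*Mlxipl* at chr5:135089640-135089889: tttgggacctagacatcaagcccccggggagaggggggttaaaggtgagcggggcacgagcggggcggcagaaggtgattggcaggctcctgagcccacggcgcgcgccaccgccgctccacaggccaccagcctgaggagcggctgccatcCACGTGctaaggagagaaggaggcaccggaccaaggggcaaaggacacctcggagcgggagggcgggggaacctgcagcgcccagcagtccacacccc
*Pck1* at chr2:173152823-173153047: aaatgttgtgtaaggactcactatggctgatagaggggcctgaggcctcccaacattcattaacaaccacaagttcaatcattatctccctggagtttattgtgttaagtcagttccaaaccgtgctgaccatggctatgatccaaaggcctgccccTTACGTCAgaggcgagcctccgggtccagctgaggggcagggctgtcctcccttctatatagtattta
A match of letters is a description and no measure of binding.

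On the ND, *Slc5a1* had the highest level of the 9 genes in *Tas1r3*+/+ ileum, at 168 ± 65.6 scaled RPKM (SD, n = 4), and its lowest library lay above the highest library of the next gene. *Khk* (83.4 ± 25.5), *Mlxipl* (83.1 ± 12.2) and *Tkfc* (79.6 ± 20.1) followed and overlapped each other. *Slc2a5* (26.2 ± 9.18), *Fbp1* (18.4 ± 12.3) and *Pck1* (8.46 ± 5.43) came next, each overlapping its neighbour. *Slc2a2* (3.26 ± 2.14) and *G6pc* (2.91 ± 3.11) were lowest and overlapped too. The order holds for RPKM summed over transcripts, in which short transcripts weigh more than in reads. Over the libraries the median of implied reads was 1563 for *Tkfc*, 1272 for *Mlxipl* and 509 for *Khk*. The coding transcript of *Slc2a5* carried 47.2% of its RPKM and 81.1% of its reads. GLUT2 and glucose-6-phosphatase rested on few reads, with 9 to 532 implied reads a library for *Slc2a2* and 2 to 148 for *G6pc*. The fructose carrier gene *Slc2a5* rested on 49 to 992, *Khk* on 147 to 1118 and *Tkfc* on 607 to 2884, against 1498 to 15593 for *Slc5a1*. In WD-fed *Tas1r3*+/+ ileum, *Slc5a1* again had the highest mean (149 ± 58.4) and *G6pc* the lowest (3.34 ± 2.19).

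**Figure D1:**
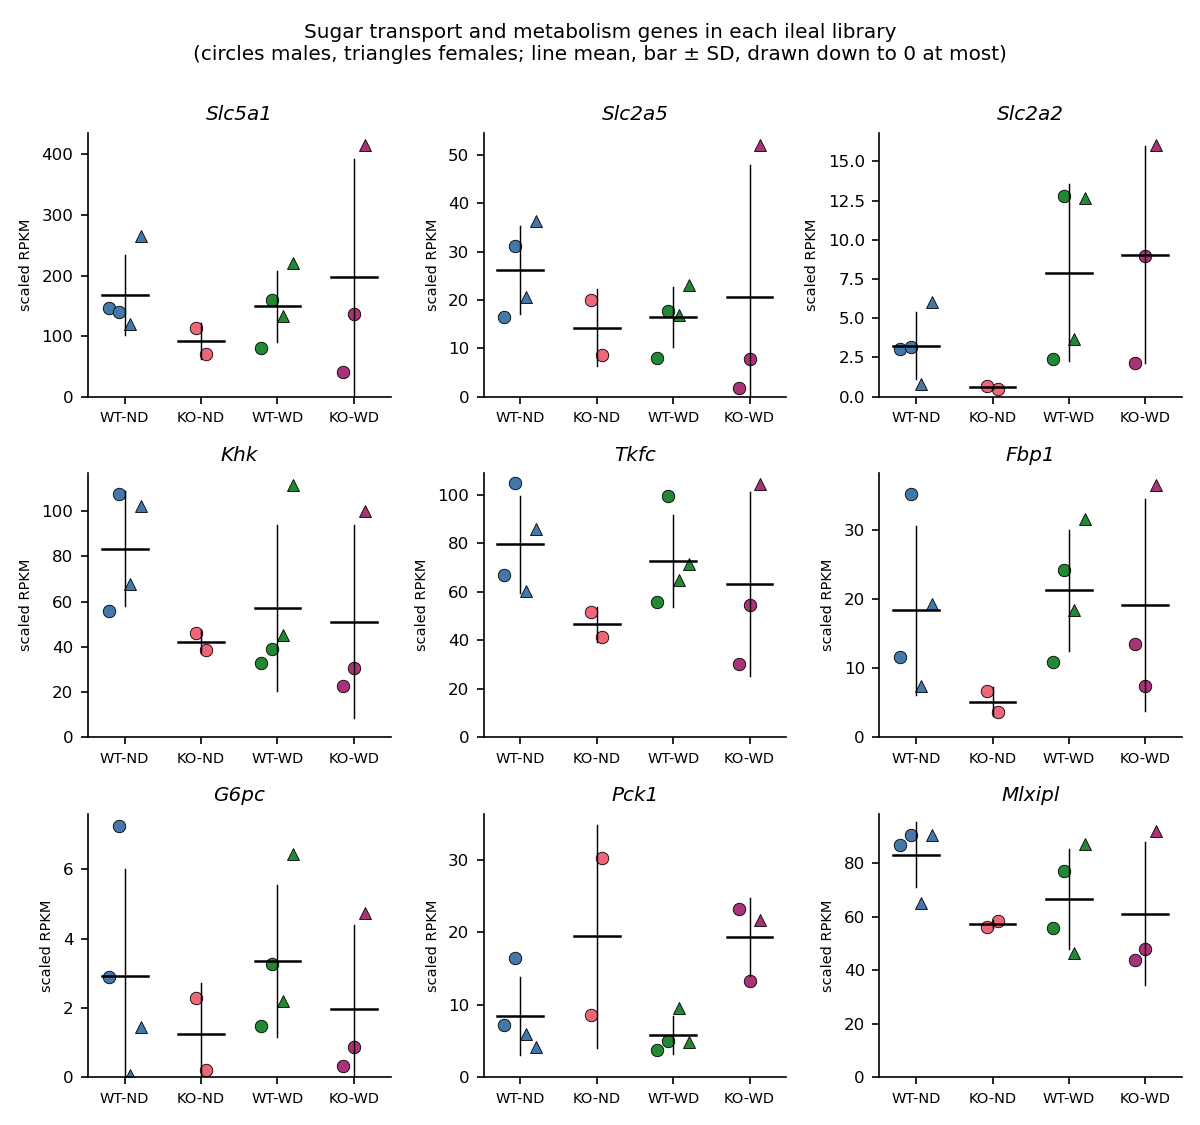
Scaled RPKM (linear vertical axes from 0) of the 9 genes in each of the 13 libraries, by group on the horizontal axis; circles are males, triangles females, horizontal lines means and vertical bars the SD, cut at 0. In WD-fed *Tas1r3*-/- ileum (KO-WD) the averaged female library is the highest of its group for 8 of the 9 genes, and *Pck1* is the gene whose 3 libraries all lie above the 4 WD-fed *Tas1r3*+/+ libraries.

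The sugar transporters were compared first. In the order male 1, male 2, female 1 and female 2, *Slc5a1* was at 147, 139, 121 and 265 scaled RPKM in ND-fed *Tas1r3*+/+ ileum and at 80.9, 160, 134 and 221 in WD-fed *Tas1r3*+/+ ileum. Its values in *Tas1r3*-/- ileum were 113 and 71.2 in the ND-fed males, and 40.7, 137 and 415 in the WD-fed males and the averaged WD-fed female. The ND-fed *Tas1r3*-/- males lay below every ND-fed *Tas1r3*+/+ library, whereas the WD-fed groups overlapped, with both the lowest and the highest of all 13 libraries in the WD-fed *Tas1r3*-/- group. The log2 fold change between genotypes was -0.83 ± 0.69 (SE) on ND and -0.08 ± 0.61 on WD, and the 95% interval of the latter ran from -1.40 to 1.25.

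*Slc2a5*, the fructose carrier, lies on chromosome 4 (GRCm38, 150119283 to 150144169, + strand), 5.72 Mb from the deleted gene. It was at 16.5, 31.1, 20.7 and 36.4 scaled RPKM in ND-fed and at 8.003, 17.7, 16.9 and 23.1 in WD-fed *Tas1r3*+/+ libraries. *Tas1r3*-/- ileum gave 19.9 and 8.65 on ND and 1.73, 7.83 and 52.0 on WD. All groups overlapped in the 4 pairwise comparisons, and the 3 WD-fed *Tas1r3*-/- libraries spanned the whole range of the gene. Its WD to ND log2 fold change was -0.68 ± 0.73 in *Tas1r3*+/+ ileum (95% interval -2.27 to 0.91). In *Tas1r3*-/- ileum it was -0.46 ± 0.95 (95% interval -2.51 to 1.59), although the mean level was higher on WD (20.5 against 14.3 scaled RPKM), and it was 0.62 without WD-fed *Tas1r3*-/- male 1.

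*Slc2a2*, which encodes GLUT2, had the largest diet difference of the 9 genes. It was at 3.04, 3.14, 0.817 and 6.04 scaled RPKM in ND-fed and at 2.40, 12.8, 3.68 and 12.7 in WD-fed *Tas1r3*+/+ libraries. The knockout libraries gave 0.668 and 0.510 on ND and 2.16, 8.97 and 16.1 on WD. The *Tas1r3*-/- groups did not overlap between diets, and the ND-fed *Tas1r3*-/- males were the lowest of all libraries, with 20 and 9 implied reads. The coding transcript Slc2a2-201 carried 43.5% of the RPKM and 73.7% of the reads of the gene. Slc2a2-202, annotated for nonsense-mediated decay, carried 32.3% of the RPKM and Slc2a2-203, a retained intron, 24.1%. The WD to ND log2 fold change was 2.78 ± 0.85 in *Tas1r3*-/- ileum (unadjusted p = 0.00612, adjusted p = 0.844 by limma with Benjamini-Hochberg adjustment, exact permutation p = 0.2 where 0.1 is the smallest possible), against 1.07 ± 0.66 in *Tas1r3*+/+ ileum (adjusted p = 0.450 by limma). The difference between these diet effects was 1.72 ± 1.07 (unadjusted p = 0.133 by limma), so they did not differ beyond their error.

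The enzymes of fructolysis follow. *Khk* was at 55.9, 108, 67.8 and 102 scaled RPKM in ND-fed and at 32.7, 39.1, 45.0 and 112 in WD-fed *Tas1r3*+/+ libraries. The *Tas1r3*-/- values were 45.9 and 38.6 on ND and 22.5, 30.8 and 100 on WD. The ND-fed *Tas1r3*-/- males lay below all ND-fed *Tas1r3*+/+ libraries, and on WD 1 female library of each genotype stood above the rest. *Khk* differed by -0.93 ± 0.57 between genotypes on ND and by -0.29 ± 0.50 on WD (log2). In all, 64.6% of its RPKM fell on the 544-base transcript Khk-202, annotated as a retained intron, and 35.4% on 4 coding transcripts, but Khk-202 held 41.5% of the gene's reads because short transcripts weigh more in a sum of RPKM.

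*Tkfc*, the triokinase gene, was at 66.9, 105, 60.5 and 86.0 scaled RPKM in ND-fed and at 55.6, 99.7, 64.7 and 71.6 in WD-fed *Tas1r3*+/+ libraries. Its values in *Tas1r3*-/- ileum were 51.6 and 41.3 on ND and 30.2, 54.6 and 105 on WD. It was the member with the smallest diet effect in *Tas1r3*+/+ ileum, with a log2 fold change of -0.13 ± 0.33 and a 95% interval of -0.84 to 0.59. Between genotypes it differed by -0.74 ± 0.40 on ND, where the groups did not overlap, and by -0.35 ± 0.36 on WD, where they did. The coding transcript Tkfc-201 carried 80.9% of its RPKM.

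Of the genes for glucose output, *Fbp1* was at 11.6, 35.3, 7.37 and 19.2 scaled RPKM in ND-fed and at 10.9, 24.3, 18.5 and 31.6 in WD-fed *Tas1r3*+/+ libraries. *Tas1r3*-/- ileum gave 6.61 and 3.67 on ND and 13.5, 7.40 and 36.6 on WD. The 2 ND-fed *Tas1r3*-/- males were the lowest of all 13 libraries. The log2 fold change between genotypes was -1.57 ± 0.65 on ND (unadjusted p = 0.0321, adjusted p = 0.895 by limma, exact permutation p = 0.133 where 0.0667 is the smallest possible) and -0.35 ± 0.57 on WD. In *Tas1r3*-/- ileum *Fbp1* was higher on WD than on ND by 1.56 ± 0.69, with an adjusted p of 0.901 by limma.

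*G6pc* was at 2.89, 7.24, 0.0612 and 1.44 scaled RPKM in ND-fed and at 1.48, 3.27, 2.19 and 6.44 in WD-fed *Tas1r3*+/+ libraries. The knockout libraries gave 2.28 and 0.211 on ND and 0.323, 0.881 and 4.73 on WD. Its libraries overlapped in all 4 comparisons, and the SE of its log2 fold changes, 0.79 to 1.02, was the largest of the 9 genes in each of them.

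*Mlxipl* was at 86.5, 90.5, 65.0 and 90.5 scaled RPKM in ND-fed and at 55.6, 77.0, 46.3 and 86.9 in WD-fed *Tas1r3*+/+ libraries. The *Tas1r3*-/- values were 56.1 and 58.2 on ND and 43.7, 47.8 and 91.9 on WD. The ND-fed *Tas1r3*-/- males lay below all ND-fed *Tas1r3*+/+ libraries, by -0.52 ± 0.32 on the log2 scale (exact permutation p = 0.0667, the smallest possible), and the WD-fed groups overlapped, at -0.16 ± 0.28. Its 542-base coding transcript Mlxipl-208 carried 50.8% of the RPKM but 15.9% of the reads, whereas Mlxipl-206, annotated for nonsense-mediated decay, carried 30.9% and 59.4%.

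*Pck1* was the exception among the 9 genes. It was at 7.26, 16.4, 5.95 and 4.24 scaled RPKM in ND-fed and at 3.74, 5.07, 9.63 and 4.88 in WD-fed *Tas1r3*+/+ libraries. Its values in *Tas1r3*-/- ileum were 8.59 and 30.3 on ND and 23.2, 13.2 and 21.8 on WD. All 3 WD-fed *Tas1r3*-/- libraries thus lay above all 4 WD-fed *Tas1r3*+/+ libraries, while the ND-fed groups overlapped. The mean was 19.4 ± 5.37 (SD, n = 3) against 5.83 ± 2.60 (n = 4), a log2 fold change of 1.69 ± 0.48 (95% interval 0.65 to 2.74). The unadjusted p was 0.00400 and the adjusted p 1.00 by limma, and the exact permutation p was 0.0571, where 0.0286 is the smallest possible. On ND the log2 fold change was 1.07 ± 0.55 (unadjusted p = 0.0720 by limma), and it was 0.20 without ND-fed *Tas1r3*-/- male 2 and 1.95 without male 1. The SE and p on ND treat the ND-fed *Tas1r3*+/+ females as separate libraries. For the main transcript, however, their values equal weighted means of the ND-fed *Tas1r3*+/+ males, as given below. On WD the log2 fold change was 1.91 in a fit of the males alone. The *Tas1r3*-/- males of that fit are not separate values for the main transcript. As given below, the value of male 2 equals a mean that includes male 1.

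The *Pck1* difference lay in 1 of its 4 transcripts. Pck1-202, annotated as a retained intron and 2728 bases long, was at 3.10, 4.03, 1.93 and 3.28 scaled RPKM in WD-fed *Tas1r3*+/+ and at 22.7, 12.7 and 17.3 in WD-fed *Tas1r3*-/- libraries. The coding transcript Pck1-201 was at 0.170, 0.252, 0.715 and 0.632 in WD-fed *Tas1r3*+/+ libraries and at 0.299, 0.401 and 1.53 in WD-fed *Tas1r3*-/- libraries, which overlap. On WD the log2 difference between genotypes was 2.33 for Pck1-202 (exact permutation p = 0.0571) and 0.31 for Pck1-201 (exact permutation p = 0.571). In a fit of protein-coding transcripts only, the *Pck1* log2 fold change was 0.31 on WD, and it was -0.46 when transcripts holding any value of more than 6 digits, Pck1-202 among them, were left out.

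**Figure D2:**
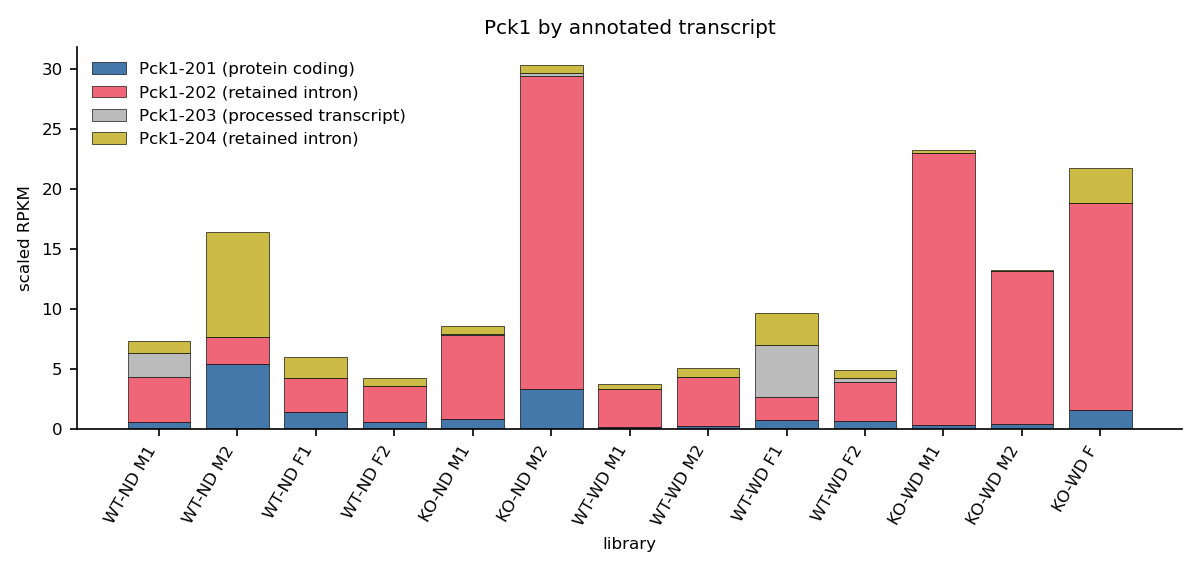
Scaled RPKM of *Pck1* in each library (vertical axis, from 0), stacked by annotated transcript. Pck1-202 makes up most of each *Tas1r3*-/- bar, at 7.04 and 26.1 on ND and 12.7 to 22.7 on WD, and is at most 4.03 in the *Tas1r3*+/+ libraries.

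The digits of these *Pck1* values need to be read beside that result. In WD-fed *Tas1r3*-/- male 2, the RPKM of Pck1-202 is given as 10.775625, with 8 digits, and equals the mean of the values of WD-fed *Tas1r3*+/+ female 2 (2.27125) and WD-fed *Tas1r3*-/- male 1 (19.28). It is the only 1 of the 468 transcript values of the 9 genes with more than 6 digits in 13 columns, which leave out the ND-fed *Tas1r3*-/- females and WD-fed *Tas1r3*-/- female 2. In that last column 58.4% of the values above 1 RPKM had more than 6 digits. In WD-fed *Tas1r3*-/- male 2, Pck1-204 (0.086164) equals the value of WD-fed *Tas1r3*-/- male 1 (0.172328) divided by 2. A count of digits misses means that are written with 6 digits or fewer. For Pck1-202, the ND-fed *Tas1r3*+/+ females (3.94225 and 3.72307) equal weighted means of the ND-fed *Tas1r3*+/+ males (4.38061 and 2.62717). The weights are the same as in the ND-fed *Tas1r3*-/- female columns. Over all genes in the same 13 columns, 169 values of 70 genes had more than 6 digits, and 4 of these equalled the mean of a pair of other columns in their row. *Pck1* was also the only gene of the lists used here whose values departed from the weighted means in the ND-fed *Tas1r3*-/- female columns, and the deleted gene *Tas1r3*, which is in no list, departed from them too. Without WD-fed *Tas1r3*-/- male 2, the log2 fold change on WD was 1.94. That fit keeps WD-fed *Tas1r3*-/- male 1 and *Tas1r3*+/+ female 1, in which the implied *Pck1* reads are not whole numbers (564.2 and 133.4). They are whole in the other WD-fed *Tas1r3*+/+ libraries (101, 160 and 111). *Tkfc* was not whole in that *Tas1r3*-/- male either (607.5), and the origin of these values was not tested. *Pck1* is also expressed in fat cells. Adipocyte genes summed to 42.1 to 246 scaled RPKM in WD-fed *Tas1r3*-/- and to 32.8 to 163 in WD-fed *Tas1r3*+/+ ileum; 5 of the 7 were higher in *Tas1r3*-/- ileum on WD, with *Adipoq* at 1.83 ± 1.01 and *Fabp4* at -0.20 ± 0.64 (log2), and their part in the *Pck1* values was not tested.

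For the 9 genes together, no comparison gave a call. On ND, 8 genes were lower and 1, *Pck1*, was higher in *Tas1r3*-/- ileum, with a median log2 fold change of -0.83 against 0.01 over all genes tested. None passed an adjusted p under 0.01 with a fold change of at least 2, nor an adjusted p under 0.05 (background 0% and 0.00525% of genes), and the adjusted p ranged from 0.895 to 0.925 by limma. *Fbp1* was the 1 gene with an unadjusted p under 0.05, which 4.73% of all genes had. In *Slc5a1*, *Slc2a2*, *Khk*, *Tkfc*, *Fbp1* and *Mlxipl* both *Tas1r3*-/- libraries lay below all 4 *Tas1r3*+/+ libraries, that is 6 of 9 genes, whereas 13.3% of all genes did so in this direction and 8.67% in the other. No gene of the 9 lay above.

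Other genes were lower on ND too. Among epithelial genes, *Epcam*, *Vil1* and *Krt20* (log2 fold changes of -0.90, -0.87 and -0.86) also lay below in both ND-fed *Tas1r3*-/- libraries, while *Cdh1* (-0.44) and *Krt19* (0.12) overlapped. Likewise below were 4 of the 6 enterocyte markers (median -1.19), and the 6 smooth muscle genes were higher by 0.45 to 0.78 with overlapping groups. None of these marker genes was called. Set against the mean log2 level of 5 epithelial structural genes, the ND difference was -0.24 for *Slc5a1*, -0.31 for *Slc2a5*, -0.34 for *Khk*, -0.16 for *Tkfc* and -0.13 for *G6pc*. It was -0.99 for *Slc2a2*, -0.98 for *Fbp1*, 0.065 for *Mlxipl* and 1.66 for *Pck1*. Each of the 8 genes other than *Pck1* was thus nearer 0 than on the scaled levels. Both ND-fed *Tas1r3*-/- libraries are males. Within the males alone 8 of the 9 genes were lower on ND, *Fbp1* by -1.94 on the log2 scale.

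On WD, 7 of the genes were lower and 2 higher in *Tas1r3*-/- ileum, with a median of -0.29 against -0.01 over all genes. No gene of the 9 was called (background 0.0105% at the stricter and 0.0263% at the looser threshold), and *Pck1* alone had an unadjusted p under 0.05, as 2.65% of all genes had. *Pck1* alone lay above without overlap, which 1.55% of genes did, and none lay below, which 1.29% did. The 3 WD-fed *Tas1r3*-/- libraries differed widely: the averaged female was the highest of the 3 for 8 of the 9 genes and the highest of all 13 libraries for 5, while male 1 was the lowest of the 3 for 7. The summed epithelial structural genes had the same order, at 1394, 2868 and 4630 scaled RPKM in male 1, male 2 and the female, and the smooth muscle genes the reverse order, at 5357, 2915 and 1370. All 6 enterocyte markers were lower in *Tas1r3*-/- ileum on WD (median -1.06), and *Fabp2* (-2.29 ± 0.69, unadjusted p = 0.00589 by limma) and *Apoa4* (-2.33 ± 1.07) lay below without overlap. The 7 leukocyte genes summed to 306 to 400 in WD-fed *Tas1r3*-/- and to 170 to 329 in WD-fed *Tas1r3*+/+ ileum, and the pancreas and hepatocyte markers to at most 17.4 in any library. Their part in the values of the 9 genes was not tested. Without male 1, the log2 fold change of *Slc5a1* was 0.79 and that of *Slc2a5* 0.42. Among males 8 of the genes were lower in *Tas1r3*-/- ileum, and in the 1 female library all 9 were higher than the mean of the *Tas1r3*+/+ females.

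**Figure D3:**
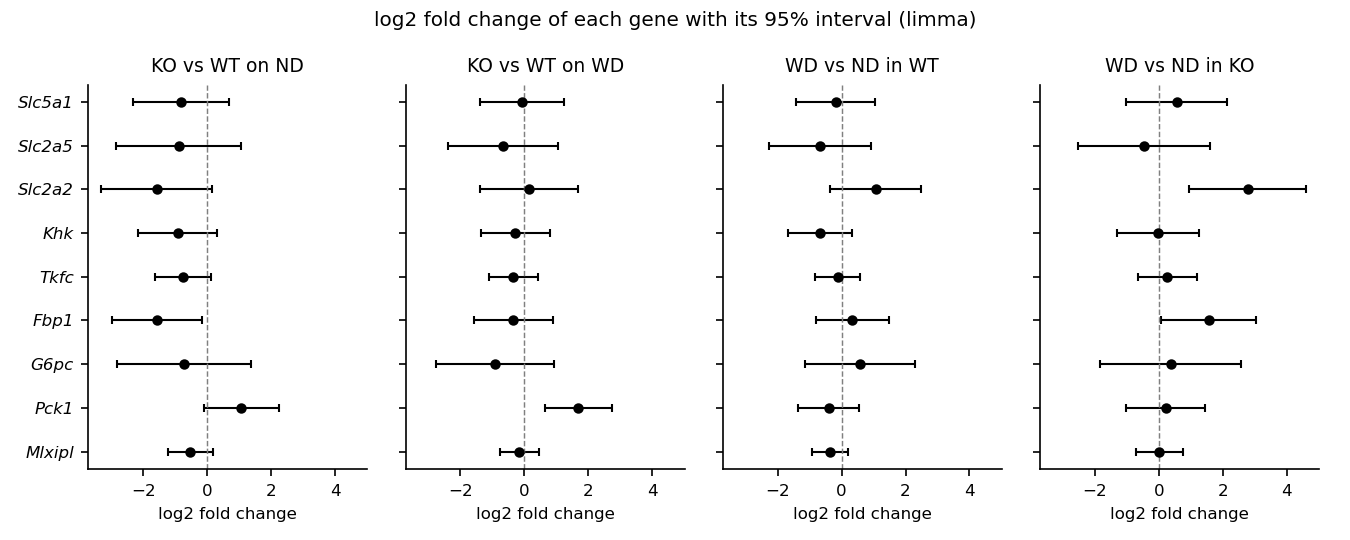
log2 fold change of each gene (points, horizontal axis) with its 95% interval from limma in 4 comparisons; the dashed line is 0. The interval lies wholly on 1 side of 0 for *Fbp1* in the ND comparison of genotypes, for *Pck1* in the WD comparison, and for *Slc2a2* and *Fbp1* between diets in *Tas1r3*-/- ileum, before adjustment over 19042 genes.

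The diets were compared within each genotype. In *Tas1r3*+/+ ileum 3 were higher and 6 lower, with a median of -0.19 against 0.02 over all genes, and the groups overlapped for each of the 9. By contrast 4.2% of all genes lay above and 6.3% below without overlap, and 15.5% had an unadjusted p under 0.05, which none of the 9 had. At the thresholds on adjusted p, 0.00525% and 0.116% of all genes were called and none of the 9 (adjusted p 0.450 to 0.894 by limma). Without scaling between libraries, *Mlxipl* was at -0.81 (adjusted p = 0.0298 by limma) and *Khk* at -1.13 (adjusted p = 0.0654 by limma). In *Tas1r3*-/- ileum 7 were higher and 2 lower (median 0.27 against 0.004), and *Slc2a2* and *Fbp1* lay above without overlap, as 10.8% of genes did and 10.1% below. The ND-fed *Tas1r3*-/- libraries are males only, and among males alone 3 of the 9 genes were higher and 6 lower on WD. These 2 also had an unadjusted p under 0.05, against 5.49% of genes, and none was called (background 0% and 0.00525%). In the males, the *Fbp1* difference was 0.95 and that of *Slc2a2* 2.21. The genotype by diet interaction called no gene at all at either threshold (background 0% and 0%), and 1.43% of genes but none of the 9 had an unadjusted p under 0.05. No alternative in processing called any of the 9 genes in any comparison at the stricter threshold.

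The levels of 8 of the genes moved together across libraries. Their 28 pairwise Pearson correlations over the 13 libraries ran from 0.33 to 0.89 (median 0.71), with *Slc5a1* and *Slc2a5* closest. *Pck1* correlated with the others at -0.32 to -0.15. These are descriptions over libraries that share groups and scaling and carry no test. *Slc2a5*, *Mlxipl* and *Khk* followed the brush-border gene *Vil1* most closely (0.93, 0.89 and 0.88), while *Slc2a2* and *Fbp1* followed it least (0.30 and 0.40) and ran with the sucrase-isomaltase gene *Sis* instead (0.94 and 0.78). The smooth muscle gene *Acta2* was negatively correlated with each of the 8, from -0.49 for *Slc2a2* to -0.91 for *Mlxipl*, and with *Pck1* at 0.08.

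**Figure D4:**
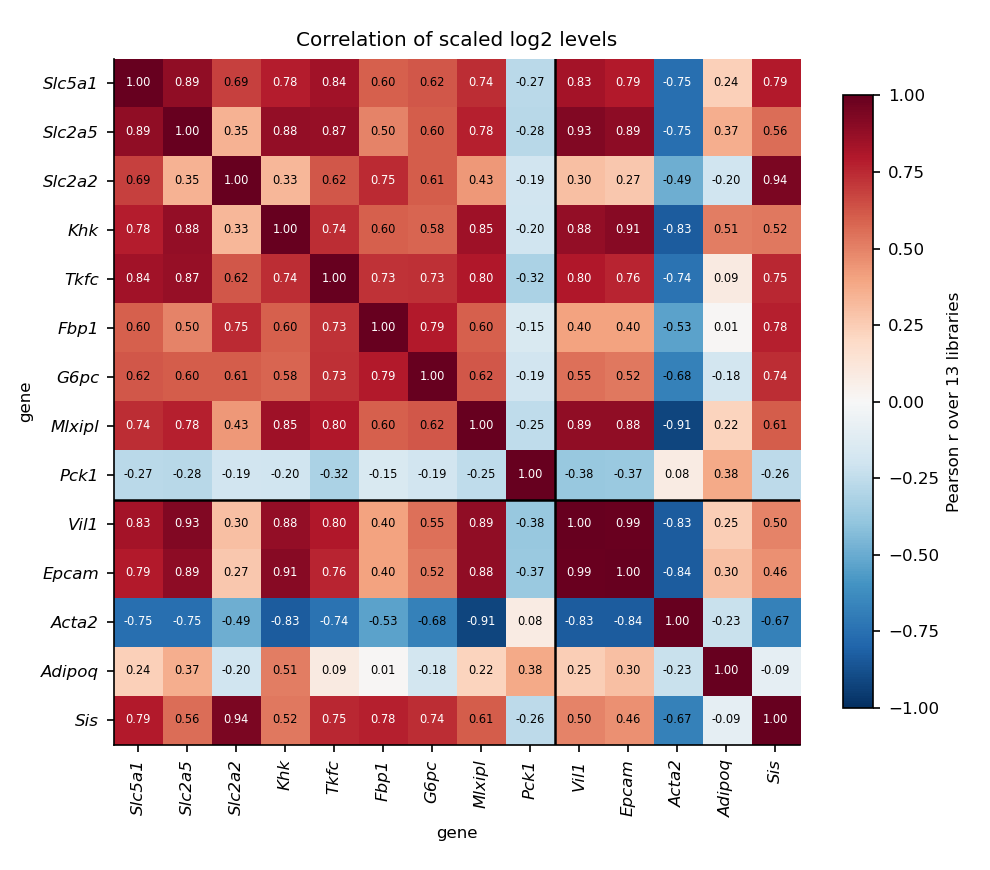
Pearson correlations of scaled log2 levels over the 13 libraries between the 9 genes (upper left block) and with *Vil1*, *Epcam*, *Acta2*, *Adipoq* and *Sis*. The row of *Pck1* is below 0 for all 8 other genes.

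Genes with a mean RPKM of at least 5 were searched for the pattern most like that of each of the 9. *Slc2a5* was closest to *Slc13a2* (a citrate carrier, 0.97), *Slc25a5* (0.97) and *Myo1a* (a brush-border myosin, 0.96), and *Slc5a1* to *Cdc42se2*, *Cfb* and *Phlpp2* (0.96 each). *Slc2a2* was closest to *Rab6a* (0.94), *Sis* (0.94) and *Rab11a* (0.93). *Khk* was closest to *Mfsd4b3-ps* (0.98), *Cgref1* (0.97) and *Trim25* (0.97), and *Tkfc* to *Galm*, the galactose mutarotase (0.96), and to *Pdzk1* (0.96). *Fbp1* was closest to *Gm6206*, *Ppm1a* and *Trim30d* (0.89, 0.89 and 0.88), *G6pc* to *Decr2* (0.97), *Edn2* (0.94) and *Pyy* (0.93), and *Mlxipl* to *Polr3c* (0.97), *Nhsl1* and *Slc39a14* (0.95 each). *Pck1* was closest to *Cpt1a* (0.87), which encodes the carrier step of mitochondrial fatty acid oxidation, then to *Armc5* (0.80) and *Scand1* (0.78).

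Genes that act beside the 9 were compared as lists, and none of their members reached an adjusted p under 0.05 in any comparison. Of 8 partners in fructolysis and glucose synthesis, 6 were lower in *Tas1r3*-/- ileum on ND (median -0.37), with *Glyctk*, the glycerate kinase gene, among the lowest (-0.83 ± 0.39), while *Pck2* (0.29 ± 0.27) and *G6pc3* (0.08 ± 0.18) were highest. On WD *Fbp2* (-0.35 ± 0.34) was among the lowest and the highest were *G6pc3* (0.12 ± 0.16) and *Pcx* (0.27 ± 0.49). Between diets in *Tas1r3*+/+ ileum, *Pcx*, the pyruvate carboxylase that feeds glucose and lipid synthesis, had the lowest value (-1.75 ± 0.45, adjusted p = 0.120 by limma), with 13.8 scaled RPKM on ND and 3.54 on WD and no overlap; the adipocyte markers had a median of -0.89 in this comparison. *Glyctk* followed (-0.68 ± 0.32), and *Sord* (-0.01 ± 0.31) was among the highest. For *Tas1r3*-/- ileum, *Pcx* (-0.97 ± 0.58) and *Pck2* (-0.83 ± 0.28) were lowest and *Slc37a4* (0.25 ± 0.37) was among the highest.

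Of 16 genes listed as other hexose transporters 15 were tested, among them *Slc5a11* and *Slc2a13*, which encode chiefly myo-inositol carriers. In *Tas1r3*-/- against *Tas1r3*+/+ ileum on ND, 7 were higher and 8 lower, from *Slc5a11* (-1.16 ± 0.66) and *Slc5a4b* (-1.05 ± 0.60) to *Slc2a4* (0.28 ± 0.66) and *Slc50a1* (0.35 ± 0.26). On WD the values ran from *Slc5a4b* (-0.68 ± 0.53) and *Slc5a11* (-0.52 ± 0.58) to *Slc50a1* (0.38 ± 0.23) and *Slc5a9* (0.60 ± 0.57). Between diets in *Tas1r3*+/+ ileum they ran from *Slc2a7* (-1.09 ± 0.52) and *Slc5a9* (-0.68 ± 0.53) to *Slc2a3* (0.35 ± 0.47) and *Slc2a13* (0.53 ± 0.22). Among *Tas1r3*-/- libraries *Slc2a1*, the basal glucose carrier GLUT1, and *Slc2a7* were lowest (-0.48 ± 0.19 and -0.30 ± 0.68), and *Slc50a1* and *Slc5a9* were highest (0.35 ± 0.28 and 0.81 ± 0.68). *Slc2a1* was lower on WD in *Tas1r3*+/+ ileum too, at 4.94 against 7.95 scaled RPKM (adjusted p = 0.101 by limma). Its *Tas1r3*+/+ groups did not overlap, as for 6.3% of all genes in this direction. None of these transporters stood apart from the spread between libraries after adjustment.

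Of 20 glycolysis genes 18 were tested, with medians between -0.20 and -0.01 in the 4 comparisons. On WD *Hk2*, which encodes hexokinase 2, had the lowest value in *Tas1r3*-/- ileum (-1.01 ± 0.23, unadjusted p = 8.49e-04, adjusted p = 0.719 by limma), with 5.11 against 10.9 scaled RPKM and no overlap. The next lowest was *Pklr* (-0.42 ± 0.51), and *Pkm* (0.12 ± 0.18) and *Ldha* (0.18 ± 0.29) were highest. On ND *Pklr* (-0.79 ± 0.58) and *Eno1* (-0.70 ± 0.28) were lowest and *Ldhb* (0.47 ± 0.62) and *Pfkm* (0.68 ± 0.53) highest. Between diets in *Tas1r3*+/+ ileum *Pklr* (-0.79 ± 0.48) and *Ldha* (-0.51 ± 0.27) were lowest and *Hk2* (0.68 ± 0.21) and *Ldhb* (0.71 ± 0.51) highest. In *Tas1r3*-/- ileum *Pklr* (-0.42 ± 0.61) and *Tpi1* (-0.41 ± 0.23) were lowest and *Ldhb* (0.34 ± 0.66) and *Pgk1* (0.35 ± 0.20) highest.

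The list of ChREBP partners and targets held the values closest to the threshold, in the comparison of diets. Of 12 tested genes 8 were lower on WD in *Tas1r3*+/+ ileum and 5 of these did not overlap, as 6.3% of all genes did in this direction. *Fasn*, the fatty acid synthase gene, went from 208 to 37.6 scaled RPKM (-2.36 ± 0.40, adjusted p = 0.0514 by limma), and *Thrsp*, a lipogenic gene, from 72.5 to 3.41 (-3.93 ± 0.80, adjusted p = 0.0809). In the same comparison 6 of the 7 adipocyte markers were lower, *Plin1* by -2.67 ± 0.80 (11.1 to 1.11 scaled RPKM, no overlap), *Cfd* by -2.66 ± 1.09 and *Adipoq* by -2.07 ± 0.93, and none was called. Their part in the values of *Fasn*, *Thrsp* and *Pcx* was not tested. The glucose-responsive genes *Txnip* (0.37 ± 0.30) and *Klf10* (0.40 ± 0.19) were at the other end. In *Tas1r3*-/- ileum *Thrsp* (-2.75 ± 1.04) and *Fasn* (-1.36 ± 0.52) were again lowest and *Txnip* (0.18 ± 0.39) and *Klf10* (0.88 ± 0.25) highest. *Fasn* and *Thrsp*, the lowest of the 12, therefore differed more between diets than *Mlxipl*, at -0.35 ± 0.26 in *Tas1r3*+/+ and 0.01 ± 0.34 in *Tas1r3*-/- ileum. This compares extremes of a list with 1 gene and is not a test. The medians of the 12 genes were -0.59 and -0.33. Between genotypes all 12 were lower in *Tas1r3*-/- ileum on ND, from *Klf10* (-0.91 ± 0.24) and *Pklr* (-0.79 ± 0.58) to *Acaca* (-0.10 ± 0.29) and *Acly* (-0.09 ± 0.33). On WD *Arrdc4* (-0.73 ± 0.17, adjusted p = 0.719 by limma) and *Pklr* (-0.42 ± 0.51) were lowest and *Fasn* (0.62 ± 0.44) and *Thrsp* (0.87 ± 0.87) highest.

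**Figure D5:**
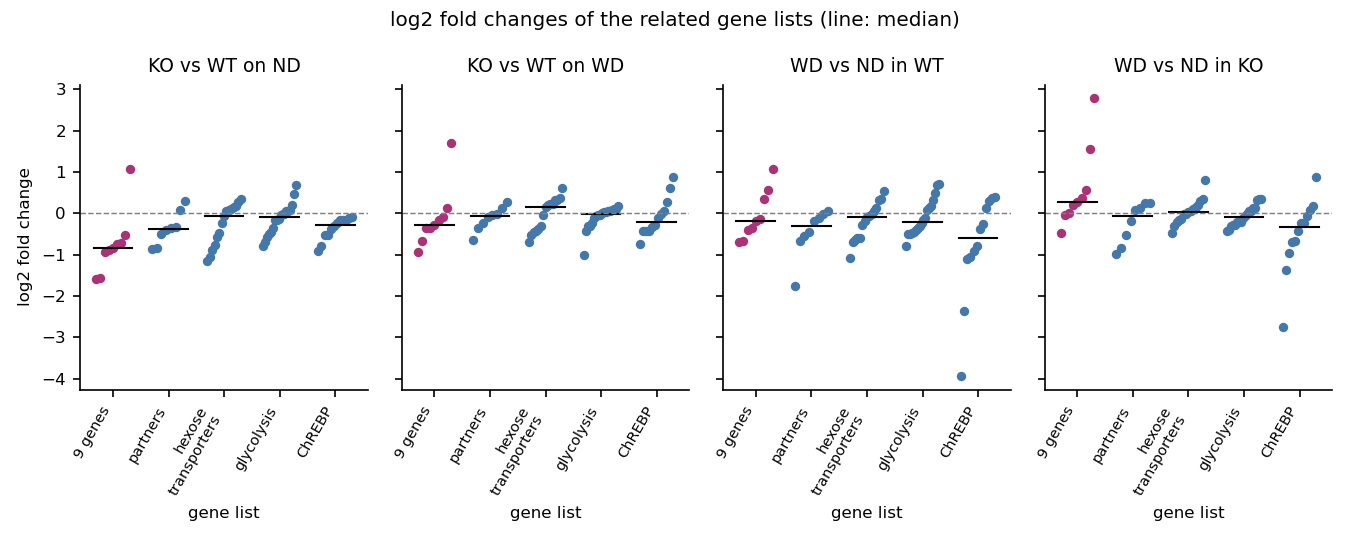
log2 fold change (vertical axis) of the tested genes of 5 lists in 4 comparisons; points are genes in order of value and lines are medians. The 9 genes have medians of -0.83 and -0.29 between genotypes on ND and WD, and *Thrsp* (-3.93) and *Fasn* (-2.36) are the lowest points between diets in *Tas1r3*+/+ ileum.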

How the data were processed

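The authors sequenced ileal RNA on the Ion Proton platform, mapped it to GRCm38 (mm10 per the labels, with Partek) and quantified transcripts, and they deposited RPKM values per transcript for 16 columns; no read counts were used here. The 9 genes and all lists were chosen with earlier results of these data known. Transcripts were matched by name to GENCODE M21 (98.2%), which gave lengths and types. For genes with 1 transcript, RPKM times length fell within 0.02 reads of whole multiples of a step constant within a library for 86.6 to 87.9% of values, which gave the depth; on 1 kb, 1 read is 0.0692 to 0.139 RPKM. Counting error is set by that depth.

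Transcript values were summed per gene. A gene was kept if 2 or more of the 13 libraries reached an RPKM of 1. Scaling factors were trimmed means of the log ratios between libraries (30% of ratios and 5% of levels trimmed at each end; 0.962 to 1.41 on ND and 0.693 to 1.01 on WD). Values were fitted as log2(scaled RPKM + 0.5) with limma 3.58.1 in R 4.3.3, all 4 groups in 1 model with its trend option, and p was adjusted by Benjamini-Hochberg across the 19042 genes; fold changes of low genes are understated. Calls were made at 2-fold or more where the adjusted p was below 0.01. Exact permutation tests were two-sided on the same log2 values. Nothing says which mice shared a litter, so p-values measure the spread between these mice. The procedure was run on simulated data whose noise was set below the spread of each gene over the libraries. That run therefore gives no power or error rate for these data. The genes named are the 9, the 2 highest and 2 lowest of each pathway list, the 3 genes most like each of the 9, *Tas1r3* and markers. A further gene that this rule names is not reported here. Alternatives covered pseudocount, filter, scaling, covariates, samples, columns and transcripts. The last, by type or length, were added after seeing the data. Tables were made with Python 3.11.15, pandas 2.3.3 and scipy 1.17.1.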

Additional observations from a re-analysis of the deposited data

Results flagged for a closer look

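In ND-fed *Tas1r3*+/+ ileum, *Mlxipl* was at 65.0 scaled RPKM in female 1 against 86.5 to 90.5 in the other 3 libraries; on the log2 scale its gap to the nearest library is 0.865 of the range of the group, above Dixon's 95% critical value for 4 samples. In all, 18 such groups were examined, and chance flags about 1 in 20.

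On WD, *Slc2a5*, *Tkfc* and *Mlxipl* lay below both *Tas1r3*+/+ males in both *Tas1r3*-/- males, and above both *Tas1r3*+/+ females in the averaged *Tas1r3*-/- female. The log2 difference between genotypes was higher in females than in males by 2.90 for *Slc2a5*, 1.48 for *Tkfc* and 1.04 for *Mlxipl*. This difference between the sexes was not tested, since the females of the WD-fed *Tas1r3*-/- group come down to 1 library.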

How the results depend on the processing

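None of the 1057 values of the 9 genes under the alternatives passed the thresholds of a call, and 106 had an unadjusted p under 0.05. In all, 83 changed sign, 58 by less than 1 SE of the value reported and 25 by more; those 25 are given here, and the cause was not tested. Relative to epithelial genes, *Mlxipl* was at 0.065 and 0.18 between genotypes on ND and WD and at 0.19 between diets in *Tas1r3*+/+ ileum, where *Tkfc* was at 0.42 and *Pck1* at 0.13. Between diets in males alone, *Fbp1* was at -0.30 and *G6pc* at -0.90 in *Tas1r3*+/+ ileum, and *Slc5a1* at -0.27, *Tkfc* at -0.19 and *Mlxipl* at -0.32 in *Tas1r3*-/- ileum; without scaling the last was at -0.39. Without transcripts over 6 digits *Pck1* was at -0.49 and -0.46 between genotypes on ND and WD and at -0.86 between diets in *Tas1r3*-/- ileum, where coding transcripts alone gave -0.99.

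Leaving out 1 library at a time, the genotype difference on WD ran from -0.90 to 0.79 for *Slc5a1*, -1.88 to 0.42 for *Slc2a5* and -0.80 to 0.11 for *Tkfc*, each highest without WD-fed *Tas1r3*-/- male 1. That of *G6pc* on ND ran from -1.70 to 0.27, highest without ND-fed *Tas1r3*-/- male 2. Between diets in *Tas1r3*-/- ileum *Slc5a1* ran from -0.27 to 1.40, *Tkfc* from -0.18 to 0.71, *Slc2a5* from -1.67 to 0.62 and *Pck1* from -0.67 to 1.09. The interaction ran from -0.99 to 1.30 for *Slc2a5* and -0.26 to 1.502 for *Pck1*. The genes called for genotype on WD numbered 1 to 2 and those for diet in *Tas1r3*+/+ ileum 1 to 3.

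The number of genes called was 0, 2, 1, 0 and 0 for genotype on ND, genotype on WD, diet in *Tas1r3*+/+, diet in *Tas1r3*-/- and the interaction. Genotype on ND gave 1 with a pseudocount of 0.1, with all 16 columns, with coding transcripts and with length weights, and 76 at an unadjusted p under 0.01. Genotype on WD gave 1 at a mean RPKM of at least 5, with the groups alone and with coding transcripts, 0 relative to epithelial genes, in males and without transcripts over 6 digits, 4 without scaling, 6 with all 16 columns and 57 unadjusted. Diet in *Tas1r3*+/+ gave 539 without scaling, 2 relative to epithelial genes, 4 with sex, 0 in males and with coding transcripts, 33 with all 16 columns and 268 unadjusted. Diet in *Tas1r3*-/- gave 1 at a mean of at least 5 and with upper quartile scaling, 16 with all 16 columns and 90 unadjusted, and the interaction 59 unadjusted. The interaction was not run with groups compared alone, since it needs all 4.

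Deviations from the group means were compared between libraries of different groups. Libraries with the same sex and number correlated at -0.15 to 0.57 (median 0.11), with 7 of 14 pairs over 0.1. Other pairs correlated at -0.63 to 0.63 (median -0.05), with 12 of 48 over 0.1. Whether the same label marks a shared source was not tested. With the replicate number as a block, 3 genes were called for diet in *Tas1r3*+/+ ileum and *Pck1* on WD was at 1.54. The implied depth limits *G6pc* and *Slc2a2* most.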

Other observations

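Set against the mean log2 level of 5 epithelial structural genes, *Slc2a2* in *Tas1r3*-/- ileum was higher on WD than on ND by 3.07 ± 0.61 on the log2 scale (unadjusted p = 1.10e-04, adjusted p = 1.00 by limma), and in *Tas1r3*+/+ ileum by 1.61. Over the 21 alternatives run for the *Tas1r3*-/- comparison, its log2 fold change ran from 2.22 to 3.54. The adjusted p by limma was under 0.05 in 1 of them, at 0.0260 with all 16 columns taken as labelled. That setting counts the ND-fed *Tas1r3*-/- female columns, which are weighted means of the males, as separate libraries, so its p does not measure the spread between mice.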
